A study of Rattus norvegicus with 30 samples.

Results

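The interferon response and antigen presentation genes were followed in rat bone marrow mesenchymal stem cells (BMSCs) through early differentiation along 3 lineages, which are abbreviated OS (osteogenesis), AD (adipogenesis) and CH (chondrogenesis). Members were defined by gene symbol: every listed gene whose symbol begins with Ifi, Isg, Irf, Stat, Gbp, Tap or Trim and a number, with Ifit, Oas or RT1-, or is Mx and a digit, together with B2m, Psmb9, Rsad2, Dhx58, Plscr1 and Bst2. Of the 9999 gene names, 80 were members. The names Psmb8, Usp18, Ddx58, Ifih1 and Nlrc5, which the choice also held, were not analysed here, nor were Stat2, Stat3, Irf1, Irf3, Irf7 and Irf9. RNA had been sequenced from 30 samples in 10 groups of 3, namely undifferentiated Sprague Dawley BMSCs (CON, 0 h) and BMSCs at 3, 12 and 72 h in osteogenic, adipogenic or chondrogenic induction medium. The cells came from the marrow of 3 female rats aged 3 weeks and were used at passage 2. Each sample pooled RNA of 3 cultures, so p-values measure the spread between pooled samples and not between rats. The only uninduced cells were those at 0 h, so induction cannot be told apart from time in culture or a fresh medium in any comparison with 0 h, and all 9 of these comparisons share the same 3 control samples.

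Interferons bind receptors at the cell surface and act through Janus kinases and STAT factors, which join interferon regulatory factors (IRFs) on short promoter elements and switch on antiviral effector genes. Among these are the OAS proteins, which sense double-stranded RNA, the IFIT proteins, which bind viral RNA, and the guanylate-binding proteins (GBPs), GTPases that attack intracellular microbes. Class I and class II molecules both carry RT1 names in the rat. Class I molecules present peptides that the proteasome cuts and the TAP transporter carries into the endoplasmic reticulum. Beta-2 microglobulin (B2m) helps to hold these peptides, whereas class II molecules present peptides from the endosomal route. The TRIM proteins are a large family of mostly RING-type E3 ubiquitin ligases, some of which restrict viruses while others serve muscle or nerve. Mesenchymal stem cells express class I and, once exposed to interferon gamma, class II, and they are known for restraining immune cells.

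The members were placed in 5 roles, with 28 in the TRIM family, 26 antiviral effectors, 12 in class I presentation, 5 in class II presentation and 9 interferon signalling factors. Promoter windows from 250 bases before to 50 bases after the gene start were matched by symbol in RefSeq (assembly GRCr8) for 62 of the 80 members, which gave 63 windows. GAAANNGAAA, the core of the interferon-stimulated response element (ISRE), was searched on both strands and occurred in 22 of the 63 windows (34.9%) and in 1312 of all 33469 windows of that length (3.92%). It was present in 15 of 22 windows of antiviral effectors and 5 of 10 of class I presentation, but in 2 of 22 of the TRIM family, 0 of 4 of class II presentation and 0 of 5 of signalling factors. TTCNNNGAA, the interferon gamma-activated sequence (GAS), was present in 7 of 63 windows (11.1%) against 8.87% of all. In Bst2 the GAS and ISRE letters overlapped. A match in these letters is a description of the window and not a measured binding site. The stretches below belong to members whose values are given further on, each in the direction of its gene with the ISRE letters in capitals, where a match on the other strand appears as its reverse complement. They lie at chr2:234005671-234005730 (+ strand), chr2:233910918-233910977 (+ strand), chr12:47383302-47383361 (- strand), chr6:128355118-128355262 (+ strand), chr1:168119028-168119072 (+ strand), chr20:2666257-2666316 (+ strand), chr3:129549155-129549214 (+ strand) and chr20:4668630-4668689 (- strand), in that order.
Gbp2: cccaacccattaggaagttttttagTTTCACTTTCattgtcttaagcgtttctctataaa
Gbp5: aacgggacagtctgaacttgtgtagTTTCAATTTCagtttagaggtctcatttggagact
Oasl2: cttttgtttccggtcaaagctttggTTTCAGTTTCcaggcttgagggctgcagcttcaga
Ifi27: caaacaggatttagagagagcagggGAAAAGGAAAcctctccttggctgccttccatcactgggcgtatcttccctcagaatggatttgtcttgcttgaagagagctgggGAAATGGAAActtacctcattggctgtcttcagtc
Trim34: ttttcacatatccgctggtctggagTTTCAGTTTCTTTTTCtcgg
RT1-N3: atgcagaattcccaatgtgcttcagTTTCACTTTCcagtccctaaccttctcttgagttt
B2m: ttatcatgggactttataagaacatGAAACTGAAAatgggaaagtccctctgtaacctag
Tap1: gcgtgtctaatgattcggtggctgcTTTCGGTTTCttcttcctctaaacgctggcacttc
Ifi27 held 2 separate matches and Trim34 held 2 that overlapped just after the gene start. The window of Trim17 held none.

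Values are CPM, a gene's reads as a share of the sample's total, scaled to 1000000 reads. The totals ran from 3899609 to 9046719 reads. At these depths 3 reads, taken as the floor, stood for 0.332 to 0.769 CPM. The listed genes held 53.7% to 54.2% of the total at 0 h, 68.7% to 71.4% in OS at 12 h and 38.9% to 49.0% in AD at 72 h. CPM values of listed genes therefore add up to different amounts between groups. CPM holds no gene length, so levels are compared between samples and not between genes. To be tested, a gene had to reach 1 CPM in 3 or more samples, as 4363 genes did, and 32 members were among them: 9 of the TRIM family, 13 antiviral effectors, 4 of class I presentation, 1 of class II presentation and 5 signalling factors. The other 48 never rose above 9 reads in any sample, 24 of them never above 3, and 35 were at 0 in at least 15 samples. A low value here does not show that a gene was silent, because genes that nearly every cell makes in quantity were also listed near 0. Actb had a median of 1.11 CPM over the 30 samples, Vim 0.322 and Ppia 0, while Rplp0 had 4214, and these 4 genes were named after their values had been seen. Of 10 stromal markers, Thy1 (median 5352 CPM) and Cd44 (586) were high, but Eng was at 0 in 21 samples. The stromal sum was 8316 to 8911 CPM at 0 h and lower in every group at 72 h, at 3932 to 4089 in OS, 2850 to 3120 in CH and 646 to 801 in AD. Most of that sum was Thy1, with means of 8052 CPM at 0 h and 427 in AD at 72 h. Of 15 myeloid markers, 3 were listed, and their sum was at most 1.55 CPM outside 72 h of adipogenesis, where it was 2.38 to 4.08. Of 9 lymphoid markers, 4 were listed, and their sum was at most 0.629 CPM outside CH at 3 and 12 h, where it was 1.01 to 3.23. Sox9, a transcription factor of cartilage, had a mean of 48.1 CPM at 0 h and 1299 in CH at 72 h, whereas Acan and Col2a1 were listed near 0 throughout. Of 6 osteogenic markers, 5 were listed, and their sum was 202 to 320 CPM in CH at 72 h, nearly all of it Ibsp, but 2.86 to 4.84 in OS at 72 h and at most 16.4 in any other group. Of 6 adipogenic markers, 4 were listed, and nearly all of their sum was Lpl. That sum was 664 to 778 CPM at 0 h, 1163 to 3221 in AD, 1041 to 1146 in OS and 13.7 to 15.1 in CH at 72 h. OS replicate 3 at 3 h, AD replicate 1 at 12 h and AD replicate 3 at 72 h stood apart from the other samples of their groups. Counts and calls that changed without them are given without them as well, but not every smaller shift in a call that was kept.

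A gene was called higher or lower where its log2 fold change on the log2(CPM + 1) scale was at least 1 in size and its adjusted p in limma, by Benjamini-Hochberg over all tested genes, was under 0.05. That scale understates the change of low genes. Genes that reached 1 CPM in 1 group only, such as Trim54, were tested because they were high there, and the counts below include them. Parentheses give the log2 fold change ± its SE and this adjusted p, and group means are ± SD with n = 3. Against 0 h, 21 of the 32 tested members were called in at least 1 of the 9 comparisons (65.6%, against 53.2% of all tested genes), 11 only higher, 7 only lower, and Oasl2, RT1-N3 and Trim17 in both directions. In bulk RNA, fewer cells of a type and less RNA per cell cannot be told apart.

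In osteogenesis, 4 members were called higher and 2 lower at 3 h, against 11.7% and 6.67% of all tested genes. At 12 h there were 3 higher and 3 lower (14.7% and 7.15% of all), and at 72 h 4 higher and 2 lower (7.2% and 5.29%). In adipogenesis, 4 members were higher and 5 lower at 3 h (12.4% and 6.42% of all), 2 higher and 3 lower at 12 h (8.14% and 5.55%), and 4 higher and 5 lower at 72 h (6.19% and 9.08%). Members called in chondrogenesis were 5 higher and 4 lower for 3 h (13.1% and 4.88% of all), 2 higher and 5 lower at 12 h (9.44% and 5%), and 5 higher and 4 lower at 72 h (11.6% and 6.37%). Each member counts for 3.12 points of such a share. Members called higher made up 12.5% to 15.6% at 3 h, within 1 gene of the share of all genes in each lineage. At 12 h they made up 6.25% to 9.38%, below the share of all genes in each, but by less than 1 gene in AD and little more than 1 in CH. At 72 h they made up 12.5% to 15.6%, above it in each. Members called lower made up 6.25% to 15.6%, above the share of all genes in 8 of the 9 comparisons, but by less than 1 gene in OS at 12 and 72 h. The median log2 fold change of the tested members lay between -0.13 and 0.11 in the 9 comparisons, and that of all tested genes between -0.05 and 0.21. Without OS replicate 3 at 3 h, the count there was 4 higher and 5 lower, with Ifi27, Ifi44 and RT1-S3 added. Without AD replicate 1 at 12 h, it was 2 higher and 4 lower, with Oasl2 added. Without AD replicate 3 at 72 h, it was 4 higher and 3 lower, with Ifi27 and RT1-N3 lost.

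The balance of higher and lower calls moved with the scaling. After median-ratio scaling, the median of all genes shifted by -0.21 (CH at 3 h) to 0.11 (AD at 72 h) on the log2 scale, and the split became 3 higher and 5 lower for OS at 3 h, 5 and 3 for AD at 72 h and 4 and 5 for CH at 3 h. After quantile normalization it was 3 and 3 for OS at 3 h, 4 and 3 for AD at 72 h, 4 and 5 for CH at 3 h and 4 and 6 for CH at 72 h. With edgeR on the reads it was 3 and 7 for OS at 3 h, 2 and 6 for OS at 12 h, 3 and 8 for AD at 3 h, 4 and 7 for CH at 3 h and 5 and 6 for CH at 72 h.

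**Figure D1:**
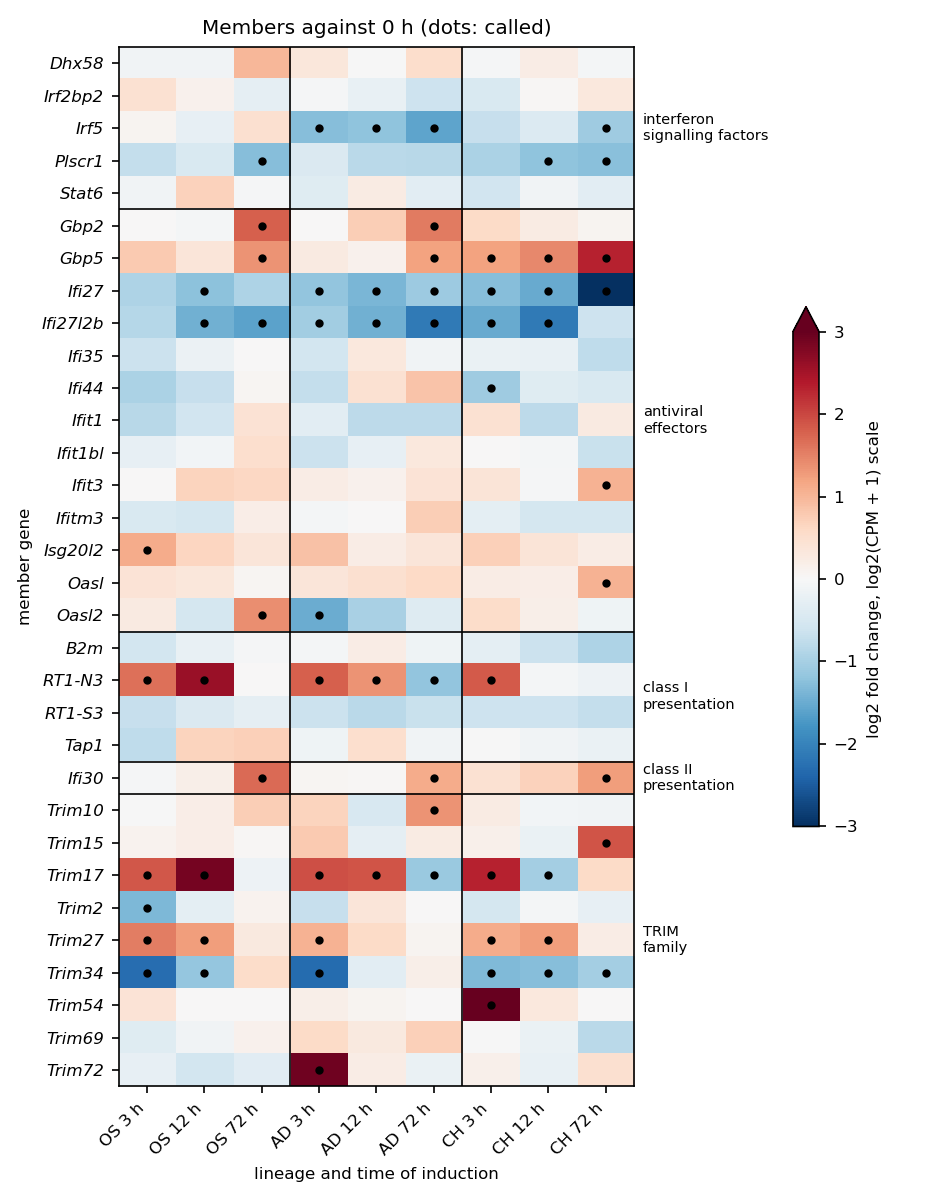
Heat map of the 32 tested members (rows, by role) in the 9 induced groups (columns), where colour is the log2 fold change against 0 h on the log2(CPM + 1) scale and a dot marks a member called at the threshold. Ifi27 and Ifi27l2b are blue in all 9 columns with 7 dots each, while Trim17 and RT1-N3 are red at 3 h in each lineage and red at 12 h in OS and AD only.

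Among the interferon signalling factors, 5 were tested and 2, Irf5 and Plscr1, were called, each in the lower direction only, with 7 calls between them. Among all tested genes, 53.2% were called in at least 1 comparison with 0 h, and 20.2% were called lower in at least 1. Irf5, a transcription factor downstream of Toll-like receptors, was called lower in adipogenesis at each time and in chondrogenesis at 72 h. At 0 h it was at 6.59, 5.15 and 6.52 CPM. In AD it was at 1.88, 2.05 and 1.78 at 3 h (-1.28 ± 0.29, adjusted p = 0.000537), 3.66, 1.66 and 1.30 at 12 h (-1.21 ± 0.29, adjusted p = 0.00126) and 1.42, 1.77 and 0.950 at 72 h (-1.58 ± 0.29, adjusted p = 5.13e-05). All 9 AD samples lay below the 3 samples at 0 h. In CH at 3 h it was at 4.80, 2.94 and 2.58 CPM with no call in limma (-0.70, adjusted p = 0.0510), but edgeR called it lower (-1.19, adjusted p = 0.00476). In CH at 72 h it was at 2.31, 2.21 and 2.67 CPM (-1.06 ± 0.29, adjusted p = 0.00399), whereas in OS at 72 h it was at 9.25, 7.96 and 9.34, with no call (0.48 ± 0.29, adjusted p = 0.244). Plscr1, an interferon-inducible phospholipid scramblase, was low at 0 h, at 1.43, 1.67 and 1.52 CPM. It fell to 0, 0 and 0.151 in OS at 72 h (-1.28 ± 0.24, adjusted p = 8.90e-05), 0.144, 0.156 and 0 in CH at 12 h (-1.21 ± 0.24, adjusted p = 0.000127) and 0, 0 and 0.222 in CH at 72 h (-1.25 ± 0.24, adjusted p = 8.06e-05). Those 3 groups held 1 or 2 reads of Plscr1 each, against 32 at 0 h. In CH at 3 h Plscr1 was at 0, 0.294 and 0.738 CPM, and its change missed the fold threshold narrowly (-0.95, adjusted p = 0.00151). That change passed with edgeR, with a pseudocount of 0.1, after median-ratio scaling or quantile normalization and without CH replicate 3.

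Stat6, which carries interleukin-4 signals, was not called in limma at any time, with means between 6.98 and 18.3 CPM over the 10 groups. In CH at 3 h its log2 fold change was -0.58 in limma (adjusted p = 0.0579), and edgeR called it lower there (-1.03, adjusted p = 0.00158). Irf2bp2, a corepressor that works with IRF2, was not called either, with means of 263 to 574 CPM. Dhx58 (LGP2), a sensor of viral RNA, was at 0.286, 0 and 0.303 CPM at 0 h and 1.19, 1.56 and 1.36 in OS at 72 h, and its change missed the fold threshold narrowly (0.99 ± 0.21, adjusted p = 0.000556). It passed with edgeR, with a pseudocount of 0.1 and without CON replicate 1 or 3 or OS replicate 1. Irf8 had 1 read in 1 sample and was not tested, nor was Irf2, with at most 7 reads.

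The 13 tested antiviral effectors divided: 5 were called higher only, 3 lower only, 1 in both directions and 4 in none. Of all tested genes, 53.2% were called in at least 1 comparison with 0 h, 39.7% higher and 20.2% lower in at least 1. The 5 include Isg20l2, which was placed here by its name and has another function, given below. Ifi27, a small mitochondrial protein of the ISG12 family, was called lower in 7 of the 9 comparisons, as was its relative Ifi27l2b. Ifi27 was at 111, 94.2 and 94.8 CPM at 0 h. It was at 42.4, 40.8 and 46.2 in AD and 42.9, 44.8 and 34.1 in CH at 3 h (-1.19 ± 0.21, adjusted p = 2.38e-05 and -1.29 ± 0.21, adjusted p = 7.62e-06), and in OS at 44.5, 35.7 and 87.98, with no call (-0.93 ± 0.21, adjusted p = 0.000547). The third of these OS samples was the library that stood apart, and without it the fall was called (-1.30 ± 0.17, adjusted p = 3.39e-07). At 12 h the means were 42.1 ± 4.94 in OS, 38.3 ± 2.48 in AD and 34.3 ± 4.77 in CH, and all 3 were called. At 72 h the lineages parted, with 57.6, 47.1 and 52.3 CPM in OS, 48.96, 58.5 and 34.5 in AD and 12.3, 10.8 and 12.2 in CH, the lowest values of all 30 samples. The fall in CH at 72 h was 8.48-fold (-2.98 ± 0.21, adjusted p = 6.20e-13), that in OS was not called (-0.92 ± 0.21, adjusted p = 0.000932), and that in AD (-1.09 ± 0.21, adjusted p = 9.90e-05) was lost without AD replicate 3 (-0.88) and after median-ratio scaling (-0.90).

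Ifi27l2b was at 10.7, 12.1 and 14.3 CPM at 0 h and below that range in each of the 27 induced samples. It fell to 1.44, 3.12 and 1.90 in CH at 12 h (-2.11 ± 0.26, adjusted p = 1.31e-07) and to 2.31, 2.84 and 1.27 in AD at 72 h (-2.12 ± 0.26, adjusted p = 1.17e-07). It was also called in OS at 12 and 72 h (-1.45 ± 0.26, adjusted p = 3.16e-05 and -1.61 ± 0.26, adjusted p = 1.54e-05), in AD at 3 and 12 h and in CH at 3 h. The call in AD at 3 h (-1.05 ± 0.26, adjusted p = 0.00162) was lost without CON replicate 3 or AD replicate 1. In CH at 72 h, where Ifi27 was at its lowest, Ifi27l2b was at 7.69, 9.06 and 6.23 CPM with no call (-0.63 ± 0.26, adjusted p = 0.0581). The names mark near relatives in a gene family, and how reads shared between them were assigned is not given in the sources used here.

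Of the 4 guanylate-binding proteins, Gbp2 and Gbp5 were tested, and both were called higher only. Gbp2 was at 0.143, 1.81 and 1.67 CPM at 0 h, 7.16, 4.84 and 6.33 in OS at 72 h (1.78 ± 0.31, adjusted p = 4.26e-05) and 5.34, 5.32 and 4.44 in AD at 72 h (1.56 ± 0.31, adjusted p = 0.000190). In CH at 72 h it was at 1.80, 0.884 and 0.889 CPM, within the range at 0 h. Gbp5, which promotes inflammasome assembly, was at 0.143, 1.11 and 0.152 CPM at 0 h and rose in CH at each time, to 1.95, 2.64 and 2.21 at 3 h (1.21 ± 0.37, adjusted p = 0.00869), 2.74, 1.87 and 4.12 at 12 h (1.43 ± 0.37, adjusted p = 0.00254) and 6.92, 5.53 and 5.56 at 72 h (2.31 ± 0.37, adjusted p = 7.11e-06). All 9 CH samples lay above the 3 at 0 h. Gbp5 also rose in OS at 72 h, to 3.43, 2.18 and 2.26 (1.35 ± 0.37, adjusted p = 0.00569). Its call in AD at 72 h (1.21 ± 0.37, adjusted p = 0.0110) came from values of 1.78, 5.85 and 0.792 CPM, the lowest of which lay below the highest at 0 h, and was lost in the fit on the 6 samples and without CON replicate 1 or 3 or AD replicate 2. Lymphoid markers, led by Ms4a1 and Cd2, summed to 0 CPM in every sample at 0 h, 2.10 to 3.23 in CH at 3 h, 1.01 to 3.12 in CH at 12 h and 0 to 0.256 in CH at 72 h, where Gbp5 was at its highest. Their part in the values of CH at 3 and 12 h was not tested. Gbp3 and Gbp4 were not tested, with at most 2 and 6 reads.

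Of the OAS genes, Oasl2 and Oasl were tested. Oasl2, an OAS-like protein, was at 5.73, 4.88 and 5.31 CPM at 0 h. It rose to 14.6, 16.1 and 15.97 in OS at 72 h (1.39 ± 0.25, adjusted p = 4.40e-05) and fell to 1.66, 1.26 and 0.892 in AD at 3 h (-1.49 ± 0.25, adjusted p = 1.09e-05). Neither set of 3 overlapped the samples at 0 h. In CH at 3 h it was at 7.64, 10.1 and 7.13 CPM with no call (0.55 ± 0.25, adjusted p = 0.0741). Oasl was at 0 in all 3 samples at 0 h and at 0, 1.11 and 3.11 CPM in CH at 72 h, where limma called it (1.04 ± 0.36, adjusted p = 0.0210) although 1 sample was still at 0, so that it is named outside the rule for named genes. Oas1b, Oas1i, Oas2 and Oas3 were not tested, and none of them had more than 8 reads in any sample.

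Of the remaining effectors, Ifi44 and Ifit3 were near the floor. Ifi44 was at 1.72, 1.67 and 0.455 CPM at 0 h and 0, 0.147 and 0 in CH at 3 h (-1.07 ± 0.28, adjusted p = 0.00273), a call lost without CON replicate 1 or 2. Ifit3 was at 0.143, 0.279 and 0.455 CPM at 0 h and 1.54, 1.11 and 2.45 in CH at 72 h (1.04 ± 0.26, adjusted p = 0.00224), a call lost after quantile normalization and without CON replicate 1 or CH replicate 3. Isg20l2, an exonuclease of ribosomal RNA processing despite its interferon-derived name, rose from 81.2, 77.3 and 84.5 CPM at 0 h to 172, 171 and 188 in OS at 3 h (1.12 ± 0.10, adjusted p = 2.68e-10). After median-ratio scaling the log2 fold change of Isg20l2 was 0.88 and under the threshold. Ifi35, Ifit1, Ifit1bl and Ifitm3 were not called against 0 h at any time, and Ifi35 had means of 13.1 to 28.8 CPM. Isg15, Mx1, Rsad2 and Bst2, which are among the best known interferon-stimulated genes, stayed at 8 reads or fewer in every sample, with Isg15 at most 1.78 CPM and Mx1 at most 1.26 CPM. Ifi47, Ifitm2 and Ifitm6 were not tested either.

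In class I presentation, 4 members were tested and RT1-N3 alone was called against 0 h, as were 53.2% of all tested genes in at least 1 comparison. RT1-N3, a nonclassical class I gene, was at 12.6, 14.9 and 20.9 CPM at 0 h and higher at 3 h in all 3 lineages. It was at 44.3, 46.4 and 68.8 in OS (1.66 ± 0.25, adjusted p = 3.02e-06), 55.6, 58.4 and 57.7 in AD (1.79 ± 0.25, adjusted p = 9.82e-07) and 68.2, 58.3 and 52.2 in CH (1.84 ± 0.25, adjusted p = 5.88e-07). At 12 h it reached 96.6, 105 and 99.5 in OS, 6.22-fold above 0 h (2.59 ± 0.25, adjusted p = 7.11e-10), and stood at 59.2, 32.96 and 38.1 in AD (1.36 ± 0.25, adjusted p = 8.05e-05), but in CH it was back at 14.3, 17.3 and 13.9 CPM, with no call. At 72 h it was at 18.1, 12.8 and 17.2 in OS and 15.6, 12.8 and 14.2 in CH, both overlapping 0 h. In AD at 72 h it was at 9.26, 9.04 and 3.01 and called lower (-1.17 ± 0.25, adjusted p = 0.000452), but without the AD replicate 3 that stood apart the log2 fold change was -0.73, and the call was also lost without CON replicate 3 and in a fit on the 6 samples alone. The class I genes among the RT1 members are related to one another. RT1-N3 also lies within a noncoding RNA gene in the RefSeq annotation, so its reads cannot be assigned with certainty.

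B2m, the shared light chain of class I molecules, was at 832, 912 and 810.1 CPM at 0 h and was not called in any comparison. Its lowest group was CH at 72 h, at 584, 389 and 394 CPM (-0.92 ± 0.18, adjusted p = 0.000128), below all samples at 0 h. That change passed the fold threshold after quantile normalization (-1.10) and without CH replicate 1 (-1.12). Tap1, a subunit of the peptide transporter, was at 7.88, 10.3 and 9.70 CPM at 0 h, 6.11, 3.48 and 5.81 in OS at 3 h (-0.77 ± 0.29, adjusted p = 0.0310) and 16.3, 15.4 and 14.01 in OS at 12 h (0.66 ± 0.29, adjusted p = 0.0600). Its highest value of any sample, 17.9 CPM, was in OS at 72 h. Tap1 was not called in limma at any time, and edgeR called the lower value in OS at 3 h. RT1-S3, another nonclassical class I gene, had group means of 0.208 to 1.23 CPM. Tap2, Psmb9, RT1-A2, RT1-CE4, RT1-CE7, RT1-M2, RT1-T24-3 and RT1-T24-4 had at most 9 reads in any sample and were not tested, Psmb9 with 1 read in 1 sample.

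Ifi30 was the single tested member of class II presentation. It encodes GILT, a lysosomal thiol reductase that opens disulfide bonds of antigens. It was at 73.3, 77.03 and 77.9 CPM at 0 h and rose at 72 h in each lineage, to 235, 247 and 263 in OS (1.69 ± 0.15, adjusted p = 1.09e-10), 170.2, 152 and 176 in AD (1.11 ± 0.15, adjusted p = 3.16e-07) and 208, 177 and 167 in CH (1.26 ± 0.15, adjusted p = 2.71e-08). All 9 samples at 72 h lay above every sample at 0 h. In CH it was at 111, 101 and 102 CPM at 3 h (0.45 ± 0.15, adjusted p = 0.0125), above all samples at 0 h, and at 125, 136 and 110.3 CPM at 12 h, under the fold threshold (0.69 ± 0.15, adjusted p = 0.000333), while at 3 and 12 h in OS and AD it had means of 76.2 to 86.8 CPM. The class II chain genes RT1-Bb and RT1-Da and the loading factors RT1-DMa and RT1-DMb had at most 6 reads and were not tested.

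**Figure D2:**
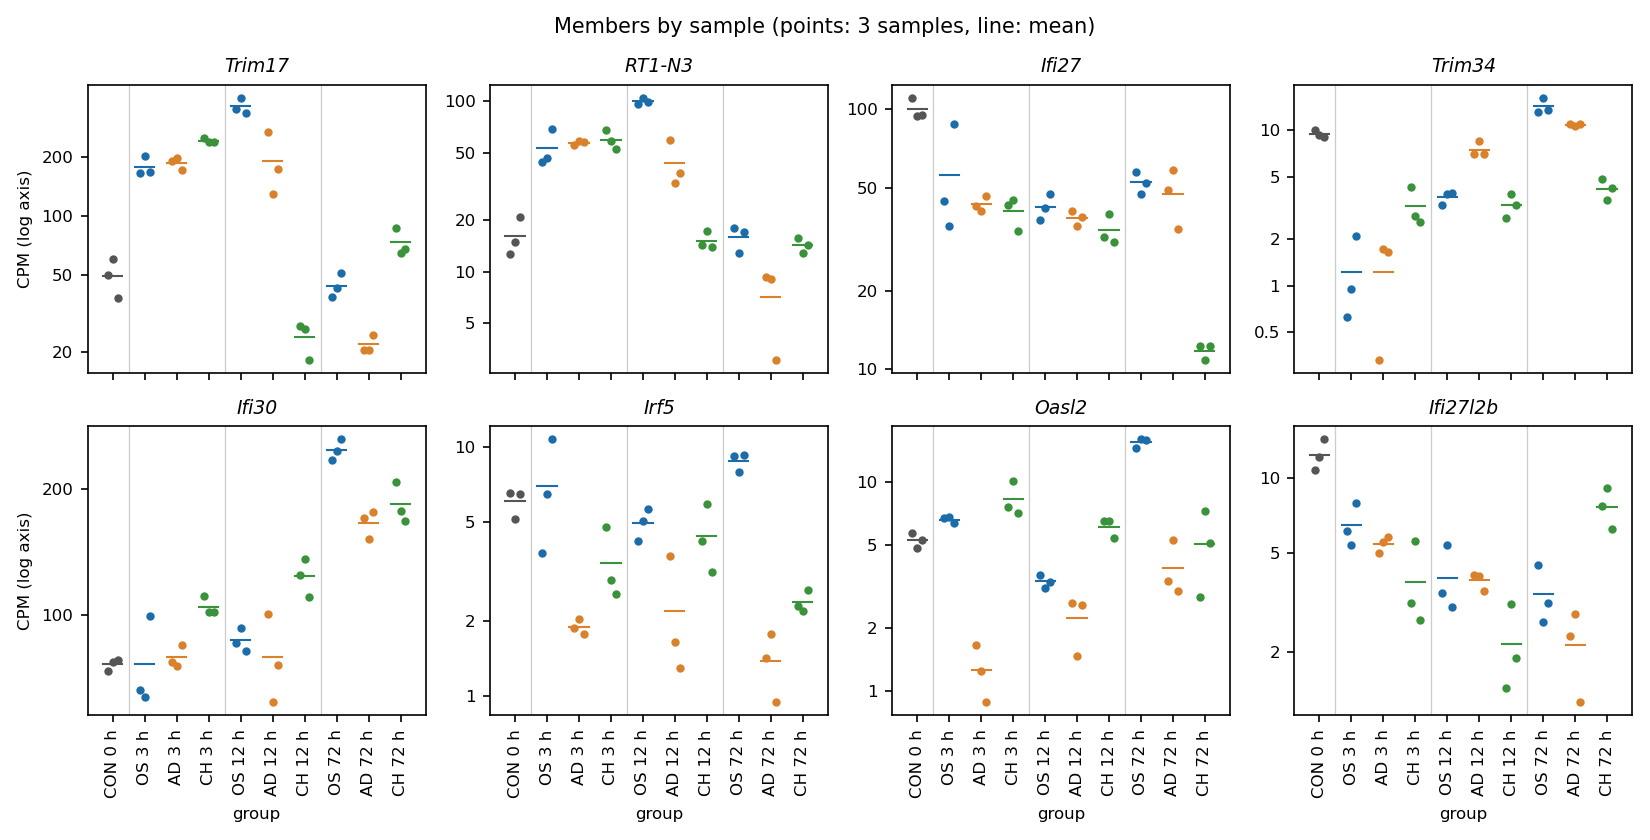
CPM (log axis) of 8 members in the 30 samples by group, where points are samples and lines are means of 3. Trim17 and RT1-N3 are raised at 3 h in each lineage and at 12 h in OS and AD, Ifi27 is at 10.8 to 12.3 CPM in CH at 72 h, and Ifi30 is raised in all 9 samples at 72 h.

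Within the TRIM family, 9 members were tested and 8 were called in at least 1 comparison with 0 h, with Trim69 the exception, and among all tested genes 53.2% were so called. Trim17, an E3 ubiquitin ligase known for promoting neuronal apoptosis, was at 49.99, 60.5 and 37.8 CPM at 0 h. At 3 h it was at 166, 203 and 168 in OS (1.85 ± 0.19, adjusted p = 2.52e-09), 192, 199 and 171 in AD (1.92 ± 0.19, adjusted p = 1.39e-09) and 251, 239 and 241 in CH (2.30 ± 0.19, adjusted p = 3.02e-11), so that each of the 9 samples was above every sample at 0 h. At 12 h it went on to 355, 404 and 336 in OS, 7.39-fold above 0 h (2.88 ± 0.19, adjusted p = 1.46e-13), and was at 269, 129 and 174 in AD (1.89 ± 0.19, adjusted p = 3.09e-09). In CH at 12 h it had dropped to 27.2, 26.3 and 18.2, below all samples at 0 h (-1.01 ± 0.19, adjusted p = 7.68e-05). That lower call was lost without CON replicate 1 or 2 or CH replicate 3, with log2 fold changes of -0.99, -0.86 and -0.84. At 72 h Trim17 was at 38.2, 42.9 and 50.8 in OS and 86.7, 64.8 and 67.8 in CH, with no call, and at 20.7, 20.6 and 24.6 in AD (-1.12 ± 0.19, adjusted p = 2.24e-05), a call lost after median-ratio scaling (-0.93), after quantile normalization (-0.95) and without CON replicate 2 (-0.96). In the RefSeq annotation Trim17 overlaps a noncoding RNA gene, and whether the counting used strand is not given in the sources used here.

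Trim27, a ubiquitin ligase of the nucleus and endosomes, was called higher at 3 h in all lineages and at 12 h in OS and CH, with no call in AD at 12 h. It was at 18.8, 20.1 and 20.6 CPM at 0 h, 49.05, 43.4 and 96.97 in OS at 3 h (1.53 ± 0.19, adjusted p = 8.80e-08) and 45.6, 60.9 and 42.1 in CH at 12 h (1.26 ± 0.19, adjusted p = 3.14e-06). The highest value of OS at 3 h belonged to the library that stood apart, and the call held without it (1.18 ± 0.15, adjusted p = 2.01e-07). Its calls in OS at 12 h and in AD and CH at 3 h rested on log2 fold changes of 1.25, 1.04 and 1.10, which fell to 0.92, 0.80 and 0.77 after median-ratio scaling, under the threshold.

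Trim34, an interferon-inducible relative of the retrovirus restriction factor Trim5, moved the other way. It was at 10.03, 9.33 and 9.10 CPM at 0 h and at 0.627, 0.948 and 2.07 in OS at 3 h, 7.80-fold lower (-2.29 ± 0.26, adjusted p = 1.16e-08), and 0.332, 1.73 and 1.64 in AD at 3 h, 7.69-fold lower (-2.30 ± 0.26, adjusted p = 1.22e-08). Without OS replicate 3, which stood apart, the OS ratio was 12.0 (-2.56 ± 0.26, adjusted p = 3.65e-09). In CH at 3 h it was at 4.35, 2.79 and 2.58 (-1.33 ± 0.26, adjusted p = 8.27e-05). In OS and AD it was then higher again, at 3.31, 3.89 and 3.96 and 7.02, 8.47 and 7.03 at 12 h and 13.1, 16.2 and 13.6 and 11.04, 10.6 and 10.9 at 72 h, the call remaining only in OS at 12 h (-1.15 ± 0.26, adjusted p = 0.000395). In CH it was at 2.74, 3.90 and 3.33 at 12 h (-1.29 ± 0.26, adjusted p = 0.000149) and 4.87, 3.54 and 4.22 at 72 h (-1.02 ± 0.26, adjusted p = 0.00200), and the call at 72 h was lost without CON replicate 1 or CH replicate 2. Trim2, a ligase of neuronal filaments, fell from 17.6, 18.1 and 18.8 CPM to 8.15, 7.90 and 4.15 in OS at 3 h (-1.36 ± 0.24, adjusted p = 2.35e-05). Without OS replicate 3 the log2 fold change of Trim2 was -1.09 (adjusted p = 0.000478). Its means lay between 10.8 and 23.8 CPM in the other induced groups.

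Of the remaining TRIM genes, 4 were called against 0 h in a single group each. Trim72 (MG53), a membrane repair protein of muscle, was at 14.6, 12.3 and 9.96 CPM in AD at 3 h against 1.15, 0.696 and 0.455 at 0 h, a 16.0-fold difference (2.91 ± 0.33, adjusted p = 2.12e-08), and at no more than 2.20 CPM in any other sample. Trim54 (MuRF3), a muscle protein of microtubules and sarcomeres, was at 9.74, 10.4 and 7.74 CPM in CH at 3 h and at 0 in all 3 samples at 0 h, at least 63.7-fold higher with the floor of 3 reads over the group at 0 h (3.36 ± 0.19, adjusted p = 1.59e-14). Outside CH at 3 h it was at no more than 0.790 CPM. Trim54 therefore passed the filter only through the group in which it was called, and its p-values do not stand apart from that selection. Trim15, an adhesion-linked TRIM gene of the class I gene region, was at 5.64, 4.20 and 2.22 CPM in CH at 72 h and 0.143, 0.696 and 0.152 at 0 h (1.88 ± 0.29, adjusted p = 4.55e-06). Trim10, its neighbour, was at 4.10, 2.31 and 3.01 CPM in AD at 72 h and 0.286, 0.696 and 0.910 at 0 h (1.34 ± 0.26, adjusted p = 0.000126). Trim10, Trim15 and Trim26 touch or overlap in the RefSeq annotation, so reads at their borders cannot be assigned with certainty.

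The 19 TRIM genes not tested were Trim5, Trim6, Trim7, Trim9, Trim14, Trim23, Trim29, Trim30c, Trim31, Trim36, Trim40, Trim41, Trim44, Trim46, Trim47, Trim55, Trim59, Trim63 and Trim65, with at most 9 reads each.

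**Figure D3:**
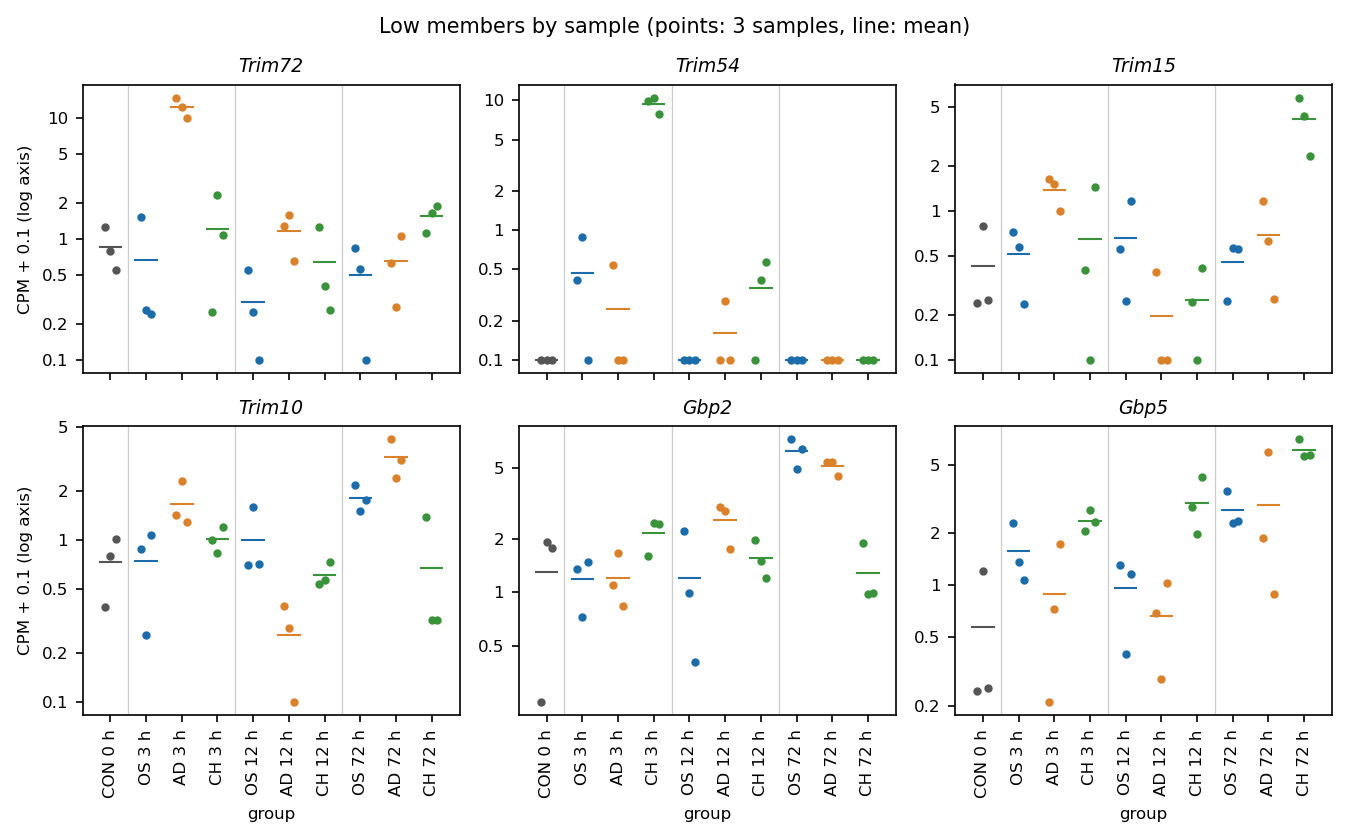
CPM + 0.1 (log axis) of 6 members of low level in the 30 samples by group, where points are samples and lines are means of 3. Trim72 stands out in AD at 3 h (9.96 to 14.6 CPM), Trim54 in CH at 3 h (7.74 to 10.4 CPM) and Trim15 in CH at 72 h (2.22 to 5.64 CPM).

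The lineages were then compared at the same time, without the samples at 0 h. At 3 h few members differed. OS against AD had 2 members higher and 1 lower (2.77% and 4.88% of all tested genes), CH against AD also had 2 and 1 (5.13% and 4.22%), and OS against CH had 0 and 2 (2.25% and 5.07%). For the count of 0, limma found 5 members higher at an unadjusted p under 0.05 and edgeR called 2 higher. For OS against CH the split was 1 and 2 after median-ratio scaling or quantile normalization, and 2 and 3 with edgeR, and it was 0 and 3 without OS replicate 3. Trim72 set AD apart from OS (-3.16 ± 0.33, adjusted p = 1.69e-08) and from CH (-2.76 ± 0.33, adjusted p = 1.53e-07), and Trim54 set CH apart from OS (-2.94 ± 0.19, adjusted p = 1.06e-12) and AD (3.18 ± 0.19, adjusted p = 6.88e-14). Oasl2 was lower in AD than in OS, 5.22-fold (1.76 ± 0.25, adjusted p = 3.04e-06), and CH, 6.54-fold (2.03 ± 0.25, adjusted p = 1.53e-07). Irf5 was higher in OS than in AD (1.37 ± 0.29, adjusted p = 0.000820), a call lost in a fit on the 6 samples alone. Without OS replicate 3 its log2 fold change was 1.04 (adjusted p = 0.0118). Ifit1 was at 0.313, 0.316 and 0.415 CPM in OS and 3.15, 2.94 and 1.11 in CH (-1.27 ± 0.34, adjusted p = 0.00831), a call lost with a pseudocount of 0.1 and without CH replicate 1.

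At 12 h, Trim17 and RT1-N3 held the 3 largest differences between lineages. OS against AD had 1 higher and 1 lower (6.99% and 6.17% of all), OS against CH 2 and 1 (8.87% and 7.08%), and CH against AD 2 and 2 (7.04% and 6.56%). OS against AD had 2 and 1 after quantile normalization, and CH against AD 2 and 4 with edgeR. Without the AD replicate 1 that stood apart, OS against AD had 3 higher and 0 lower, with Irf5 and Trim17 added and Ifi44 lost, and CH against AD had 3 and 3, with Irf5 and Trim34 added. Trim17 was 15.3-fold higher in OS than in CH (3.89 ± 0.19, adjusted p = 1.94e-16) and 7.98-fold higher in AD than in CH (-2.90 ± 0.19, adjusted p = 3.83e-13). RT1-N3 differed in all 3 pairs, with OS above AD (1.23 ± 0.25, adjusted p = 0.000301), OS above CH (2.65 ± 0.25, adjusted p = 8.34e-10) and CH below AD (-1.42 ± 0.25, adjusted p = 5.11e-05). For Trim17, OS against AD missed the fold threshold (0.99 ± 0.19, adjusted p = 0.000128) and passed it without the AD replicate 1 that stood apart (1.28 ± 0.18, adjusted p = 1.38e-06). Gbp5 was higher in CH than in AD (1.31 ± 0.37, adjusted p = 0.00694) and than in OS (-1.07 ± 0.37, adjusted p = 0.0232), the latter a call lost with a pseudocount of 0.1, with no filter and without OS replicate 2 or CH replicate 1 or 3. Oasl2 was higher in CH than in AD (1.16 ± 0.25, adjusted p = 0.000409), lost without AD replicate 2. Ifi44, at 0.151, 1.20 and 0 CPM in OS and 2.63, 1.29 and 2.22 in AD (-1.14 ± 0.28, adjusted p = 0.00216), was called, and the call was lost without AD replicate 1, without OS replicate 3 and in a fit on the 6 samples.

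At 72 h the same pairs were compared. OS against AD had 4 higher and 0 lower (9.21% and 4.52% of all), OS against CH 7 and 1 (8.55% and 11.1%), and CH against AD 6 and 7 (16.5% and 9.01%). For the count of 0, limma found 2 members lower at an unadjusted p under 0.05 and edgeR called 0. As shares of the 32 tested members, 21.9% were higher in OS than in CH and 21.9% lower in CH than in AD, and the median log2 fold change was 0.40 for OS against CH (0.07 over all tested genes) and -0.02 for CH against AD (0.08 over all). After median-ratio scaling the splits were 3 and 1 for OS against AD, 7 and 4 for OS against CH and 4 and 9 for CH against AD. With edgeR they were 7 and 3 for OS against CH and 3 and 8 for CH against AD, which had 5 and 9 after quantile normalization. Without AD replicate 3, OS against AD had 3 higher and 0 lower, with RT1-N3 and Ifit1 lost and Trim17 added. CH against AD had 4 and 8, with RT1-N3, Ifit1 and Gbp5 no longer higher in CH, Irf2bp2 added as higher and Ifit1bl as lower.

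In OS at 72 h, Oasl2 and Irf5 stood above the other lineages. Oasl2 was higher in OS than in AD (1.78 ± 0.25, adjusted p = 1.11e-06) and CH (1.52 ± 0.25, adjusted p = 8.55e-06), as was Irf5 (2.06 ± 0.29, adjusted p = 1.34e-06 and 1.54 ± 0.29, adjusted p = 6.43e-05), and for both genes the 3 OS samples lay above all 6 others. Ifit1 was at 2.54, 1.56 and 2.71 CPM in OS and 0.178, 1.24 and 0 in AD at 72 h (1.22 ± 0.34, adjusted p = 0.00516), a call lost with edgeR, in a fit on the 6 samples alone and without AD replicate 3, and RT1-N3 was also higher in OS than in AD (1.18 ± 0.25, adjusted p = 0.000414), a call lost under the same 3 alternatives and after median-ratio scaling. Ifi27 was 4.44-fold higher in OS than in CH (2.06 ± 0.21, adjusted p = 1.78e-09) and lower in CH than in AD (-1.89 ± 0.21, adjusted p = 7.16e-09). Gbp2 was lower in CH than in OS (1.71 ± 0.31, adjusted p = 4.83e-05) and AD (-1.48 ± 0.31, adjusted p = 0.000216), and so was Trim34 (1.56 ± 0.26, adjusted p = 1.02e-05 and -1.20 ± 0.26, adjusted p = 0.000247). Ifit1bl and Dhx58 were higher in OS than in CH, by log2 fold changes of 1.18 and 1.04, but CH held 1 and 2 reads of them.

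At 72 h, Trim15 was higher in CH than in OS (-1.84 ± 0.29, adjusted p = 6.68e-06) and AD (1.64 ± 0.29, adjusted p = 2.45e-05), and Trim17 was 3.33-fold higher in CH than in AD (1.69 ± 0.19, adjusted p = 1.16e-08). Ifi27l2b was higher in CH than in AD (1.48 ± 0.26, adjusted p = 2.19e-05), opposite to Ifi27. Trim69, Trim10, Ifi44 and Ifitm3 were lower in CH than in AD, with log2 fold changes of -1.52, -1.44, -1.30 and -1.27, and Ifitm3 was at 0 in all 3 CH samples and at 0.534, 2.31 and 1.74 CPM in AD. Only AD samples carried Ifitm3 past the filter, so its call does not stand apart from that selection. Myeloid markers summed to 2.38 to 4.08 CPM in the AD samples at 72 h, with Adgre1 at a mean of 1.59 and Lyz2 at 1.58 CPM, and to at most 0.442 CPM in CH at 72 h. The stromal markers summed to 646 to 801 CPM in AD at 72 h, against 8316 to 8911 at 0 h. The part of the myeloid and stromal markers in the values of AD at 72 h, and of the osteogenic and adipogenic markers in those of CH at 72 h, was not tested.

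**Figure D4:**
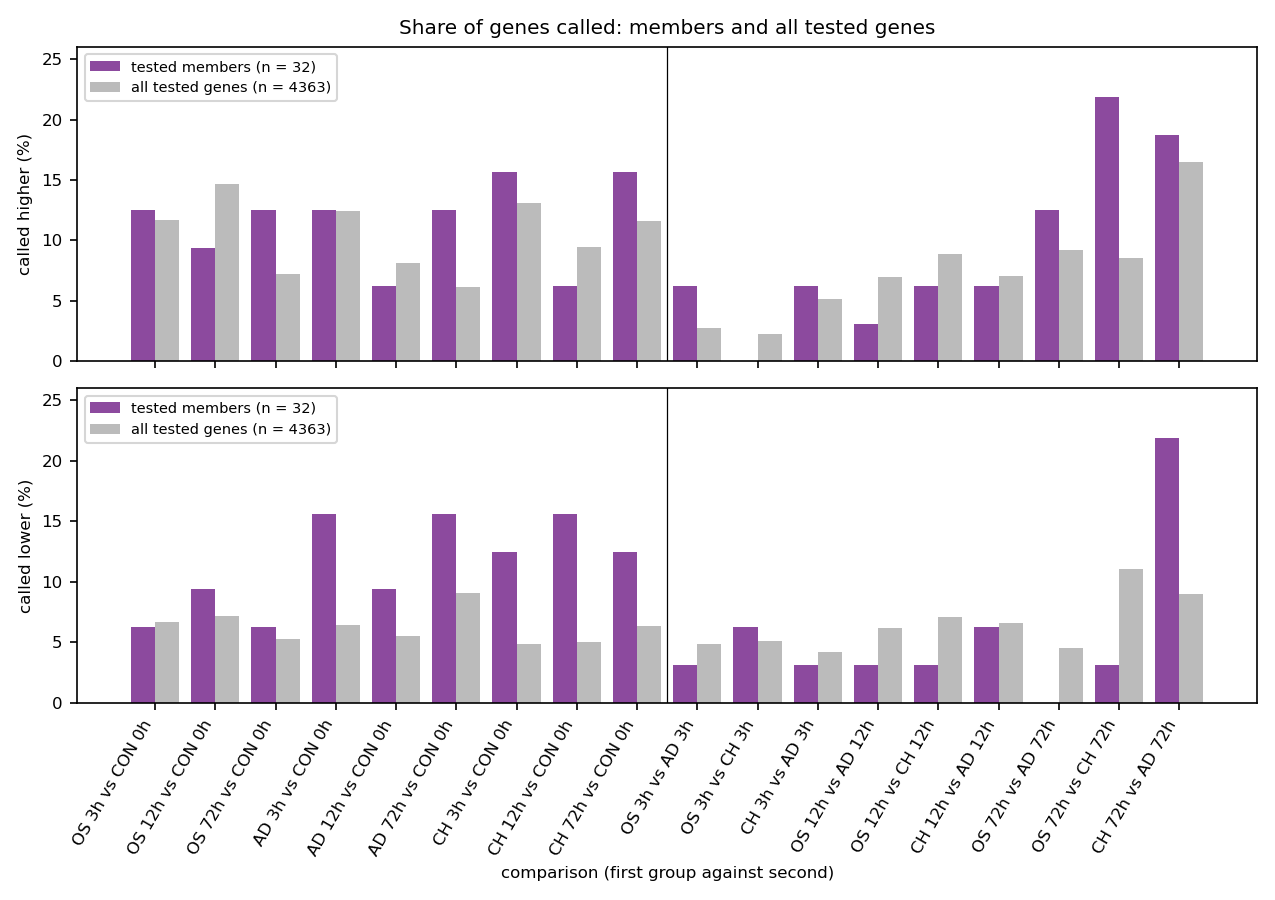
Percent of genes called higher (top) and lower (bottom) in each of the 18 comparisons, for the 32 tested members (purple) and all 4363 tested genes (grey). The member bars lie between 0 and 21.9%, and each member counts for 3.12 points, so a gap of that size is a single gene.

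Of a list of 72 further genes of interferon and presentation pathways (ligands, receptors, kinases, chaperones and targets), 35 were listed in the files and 17 were tested. Of these, 2 were called higher and 3 lower in at least 1 comparison with 0 h, which is 29.4% against 53.2% of all tested genes. Socs1, the feedback inhibitor of Janus kinases, was at a mean of 0.393 ± 0.323 CPM at 0 h and 21.2 ± 4.11 in CH at 72 h, 53.8-fold higher (3.999 ± 0.32, adjusted p = 1.40e-11), and was also called in AD at 3 h and CH at 12 h. Its 3 samples at 0 h held 8 reads in all, and without CON replicate 3 the ratio was 100.3. Cxcl10, an interferon-induced chemokine, was at 0.141 ± 0.139 CPM at 0 h and 5.23 ± 0.224 in OS at 12 h (2.46 ± 0.29, adjusted p = 3.37e-08), and was called in OS at 3 h and AD at 3 and 12 h as well. Parp14, a mono-ADP-ribosyltransferase of interferon responses, fell from 225 ± 7.77 CPM to 68.6 ± 9.70 in OS (-1.71 ± 0.11, adjusted p = 3.48e-13) and 59.3 ± 2.92 in AD at 3 h (-1.91 ± 0.11, adjusted p = 3.45e-14), the groups in which Trim34 was at its lowest, and to 90.4 ± 5.15 in CH at 72 h (-1.31 ± 0.11, adjusted p = 8.96e-11). Ifnar1, a chain of the type I interferon receptor, fell from 2.90 ± 0.598 CPM to 0.518 ± 0.462 in CH at 72 h (-1.40 ± 0.37, adjusted p = 0.00323) and was also called lower in OS and CH at 3 h. The third gene called lower was Erap1, a peptide trimming enzyme of class I presentation, in AD at 3 h. Ifngr1, Ifngr2 and Jak1, the interferon gamma receptor chains and a kinase bound to them, were tested and not called against 0 h. Ifngr1 had 23 reads over the 3 samples at 0 h and 2 each in AD at 3 h, OS at 12 h and CH at 72 h, and in the last 2 of these groups both reads came from 1 sample. On the log2(CPM + 1) scale its log2 fold changes were -0.92, -0.93 and -0.88, under the fold threshold, with adjusted p = 0.00290, 0.00236 and 0.00480 in limma.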

How the data were processed

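RNA was measured in 30 samples, and the authors deposited 1 table per sample under the name FPKM. Trimmomatic, HISAT2 and StringTie are named in the submitters' processing notes, and the genome build is not given in the sources used here. The study's methods describe mRNA libraries, the labels ribosomal RNA removal. The deposited values are CPM: in every sample 100% were whole multiples (within 0.02 reads) of the smallest value above 0, so reads and totals (3899609 to 9046719, median 6579543) were recovered. The design assumed FPKM, and the same test was applied to the CPM values. Tables held 10803 rows and 9999 names, and rows that shared a name were summed, among the members Bst2, Irf5, RT1-CE4, Tap1, Trim17 and Trim46.

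A linear model of the 10 groups, without covariates, was fitted to log2(CPM + 1) in limma 3.58.1 (R 4.3.3), with moderated variances that followed a mean trend, and gave the 18 comparisons. It covered the 4363 genes that reached 1 CPM in 3 or more samples. The thresholds were a log2 fold change of 1 and an adjusted p of 0.05, as in the study's methods. Named members were the 5 largest rises and falls per comparison with 0 h, among members called whose samples did not overlap 0 h, for each comparison of lineages the 3 largest each way, and a signalling and presentation core whatever its values. Some members that were not tested are not reported here by name. Further members are named for their role or because their calls changed, after their values had been seen. The members and gene lists were chosen with earlier results of these data known. The floor of 3 reads covers counting error only, since reads are not independent molecules. The alternatives were median-ratio scaling, quantile normalization, a pseudocount of 0.1, testing without a filter, a fit on the 6 samples compared, a replicate block, each replicate left out, and the highest row of a shared name. The quasi-likelihood test of edgeR 4.0.16, also an alternative, was run on the recovered reads and called 398 to 1328 of all tested genes per comparison. The code of the fits was also run on simulated counts with the same spread for every gene and no library that stood apart. That run says nothing of the calls given here. Figures were drawn with matplotlib 3.10.9 in Python 3.11.15.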

Additional observations from a re-analysis of the deposited data

Results flagged for a closer look

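Each difference between lineages at the same time was itself tested in the limma model, and each lineage pair in which members differed is given here. At 3 h, 3 of the 32 tested members differed between OS and AD, 2 between OS and CH, and 3 between CH and AD, against 7.66%, 7.31% and 9.35% of all tested genes. At 12 h these counts were 2, 3 and 4 in the same order, with 13.2%, 16% and 13.6% of all genes called. At 72 h, 4 members differed between OS and AD, 8 between OS and CH and 13 between CH and AD, with 13.7%, 19.6% and 25.5% of all genes called, so calls were also more frequent among all genes at 72 h than at 3 h.

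Trim17 was the 1 tested member called in opposite directions against 0 h in lineages of the same time. At 12 h it was called higher in OS and AD and lower in CH, with a log2 difference of 3.89 between OS and CH and of -2.90 between CH and AD. The fall in CH against 0 h was lost when 1 of several replicates was left out, whereas both differences between lineages kept their call under every alternative run.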

How the results depend on the processing

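Of 66 calls of members against 0 h, 52 were kept under every alternative run, as were 31 of 42 calls between lineages, and no call reversed. The counts of members called against 0 h stayed within 1.5 times under all alternatives except OS at 3 h with edgeR, which gave 10 against 6. Between lineages, edgeR gave 5 against 2 for OS and CH at 3 h, 6 against 2 for OS and AD at 12 h, 5 against 3 for OS and CH at 12 h and 2 against 4 for OS and AD at 72 h. A pseudocount of 0.1 gave 5 against 3 for CH and AD at 3 h, 5 against 2 for OS and AD at 12 h and 13 against 8 for OS and CH at 72 h. The fit on the 6 samples gave 1 for OS and AD at 12 h and 2 for OS and AD at 72 h. With 1 replicate left out, counts ran from 1 to 4 for OS and CH at 3 h (1 without CH replicate 1, 4 without OS replicate 1), from 3 to 5 for CH and AD at 3 h (5 without AD or CH replicate 3), from 2 to 5 for OS and AD at 12 h (5 without OS replicate 1) and from 7 to 13 for OS and CH at 72 h (13 without OS replicate 1). The cause of these changes was not tested. Taking the highest row of a shared name changed no call. With the replicate number as a block, the counts were 6, 6 and 6 in OS, 9, 5 and 9 in AD and 9, 7 and 9 in CH at 3, 12 and 72 h against 0 h, the same as without it, and no call of a named member changed. The numbers did not pair the samples: deviations of same-numbered samples had median correlations of -0.012, -0.011 and -0.002 across genes, and 3 of 135 pairs were over 0.1. The 48 members not tested had at most 9 reads in any sample, which limits what their values can show.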
